A study of Mus musculus with 18 samples.

Results

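Lipoxygenases and glutathione peroxidases were followed in mouse embryonic stem cells after DNA damage, as 9 genes of the 19935 with a probe naming that gene alone. The lipoxygenase side held Alox5, Alox12, Alox15 and Alox5ap, the partner protein of Alox5, and the peroxidase side held Gpx1, Gpx2, Gpx3, Gpx4 and Gpx6. The set was built around Alox5 and Gpx6 because of their measured values: both genes were chosen by their large rises in damaged R1E cells, so their R1E values are given as a description with no test. The other 7 genes, called relatives here, were taken by family name to ask whether those rises were shared. They were chosen with earlier results of these data known, and other measured family genes, given further below, were left out. Counts and p-values of the relatives therefore describe these genes and not an unselected family.

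Messenger RNA was measured on 18 whole-transcript arrays. Cells of the embryonic stem cell line R1E, for which the labels name no p53 mutation, were mock treated, given 0.5 µM adriamycin (doxorubicin, which poisons topoisomerase II and breaks DNA) for 8 hours, or exposed to 25 J/m2 of ultraviolet light (UV) and sampled at 8 hours, with 4 arrays per group. Embryonic stem cells of genotype p53-/- on a 129X1 x 129S1 background received the same adriamycin dose for the same time or no drug, with 3 arrays per group. All cells were grown in serum medium with leukemia inhibitory factor. Separate cultures behind the arrays of a group are not stated, nor is it stated whether the p53-/- cells are 1 clone, so p-values cover array-to-array spread that may be purely technical. The p53 transcript itself was not analysed here, and the p53-/- label rests on the submitters' description.

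Lipoxygenases add oxygen to polyunsaturated fatty acids such as arachidonic acid and make lipid hydroperoxides, the first step towards leukotrienes and related signalling lipids. Glutathione peroxidases work on the other side of that chemistry: they reduce hydrogen peroxide and lipid hydroperoxides to water and alcohols at the expense of glutathione. Among the peroxidase members Gpx1, Gpx2, Gpx3 and Gpx4 carry selenocysteine in the active site, whereas mouse Gpx6 carries cysteine. Unchecked lipid peroxidation in membranes leads to ferroptosis, a form of cell death that Gpx4 holds back.

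The sequences just before the transcription starts of 3 members are shown because Alox5 and Gpx6 rose together in R1E cells and Alox12, a relative that also rose, held the only match among the members to a p53 half-site. Each is the 250 bases before the start, 5′ to 3′ on the gene's strand, from RefSeq on GRCm38.p6. Capitals mark motif matches.
Alox5, chr6:116461179-116461428, minus strand: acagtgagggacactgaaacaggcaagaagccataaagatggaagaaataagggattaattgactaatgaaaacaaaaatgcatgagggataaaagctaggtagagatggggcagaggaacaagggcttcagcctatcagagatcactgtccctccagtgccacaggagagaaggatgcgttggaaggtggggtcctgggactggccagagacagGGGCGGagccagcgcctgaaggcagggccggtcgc
Gpx6, chr13:21311953-21312202, plus strand: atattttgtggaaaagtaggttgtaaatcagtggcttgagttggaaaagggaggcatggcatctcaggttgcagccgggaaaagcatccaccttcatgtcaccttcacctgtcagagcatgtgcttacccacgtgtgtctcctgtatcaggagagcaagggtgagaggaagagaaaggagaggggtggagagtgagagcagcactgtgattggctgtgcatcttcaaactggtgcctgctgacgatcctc
Alox12, chr11:70255371-70255620, minus strand: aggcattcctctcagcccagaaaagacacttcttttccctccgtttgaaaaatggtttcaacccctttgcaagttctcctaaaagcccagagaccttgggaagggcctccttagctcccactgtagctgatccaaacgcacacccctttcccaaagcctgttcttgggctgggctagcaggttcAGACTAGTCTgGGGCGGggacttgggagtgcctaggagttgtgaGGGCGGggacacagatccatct

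The search covered both strands for the p53 half-site consensus, for the antioxidant response element core (TGACNNNGC), for the GC box (GGGCGG) and for the TATA box (TATAAA), and the matches in the printed windows do not overlap. Alox12 held the p53 half-site match, beginning 66 bases before the start, and GC boxes beginning 55 and 22 bases before it. Alox5 held a GC box beginning 35 bases before its start, and Gpx6 held none of the 4 motifs in its window, which precedes a start lying inside the longer annotated span of the gene. Of 32851 promoter windows of this length, 7.13% held a p53 half-site, 10.2% the antioxidant core, 32.7% a GC box and 12.4% a TATA box. Windows were found for 7 of the 9 members, without Alox5ap and Alox15. The window of Gpx3, the relative with the largest rise, is not printed. Its only match was a GC box beginning 49 bases before the start. A match is a string of letters and not a shown binding site.

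Alox5, which encodes the lipoxygenase that starts leukotriene synthesis, read 5.09, 5.07, 5.06 and 5.21 on the 4 R1E mock arrays, as log2 intensity. After UV it read 7.25, 7.36, 7.41 and 7.32, and after adriamycin 9.08, 9.09, 9.10 and 9.07. The 3 groups lay apart without overlap, in the order mock, UV, adriamycin, and the adriamycin arrays differed by only a few hundredths of a log2 unit. The changes were 15.7-fold after adriamycin (log2 change 3.97 ± 0.05 SE) and 4.68-fold after UV (2.23 ± 0.05), and adriamycin exceeded UV 3.36-fold. These values chose the gene.

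Gpx6, a secreted peroxidase known from the olfactory epithelium, read 4.72, 5.18, 5.05 and 4.86 in R1E mock cells. It read 8.09, 7.92, 8.01 and 7.81 after UV, and 8.27, 8.31, 8.61 and 8.58 after adriamycin. Its treated groups lay far above mock and close to each other, at 8.04-fold for UV (log2 change 3.01 ± 0.10) and 11.2-fold for adriamycin (3.49 ± 0.10), with adriamycin 1.40-fold above UV. These values, too, chose the gene.

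**Figure D1:**
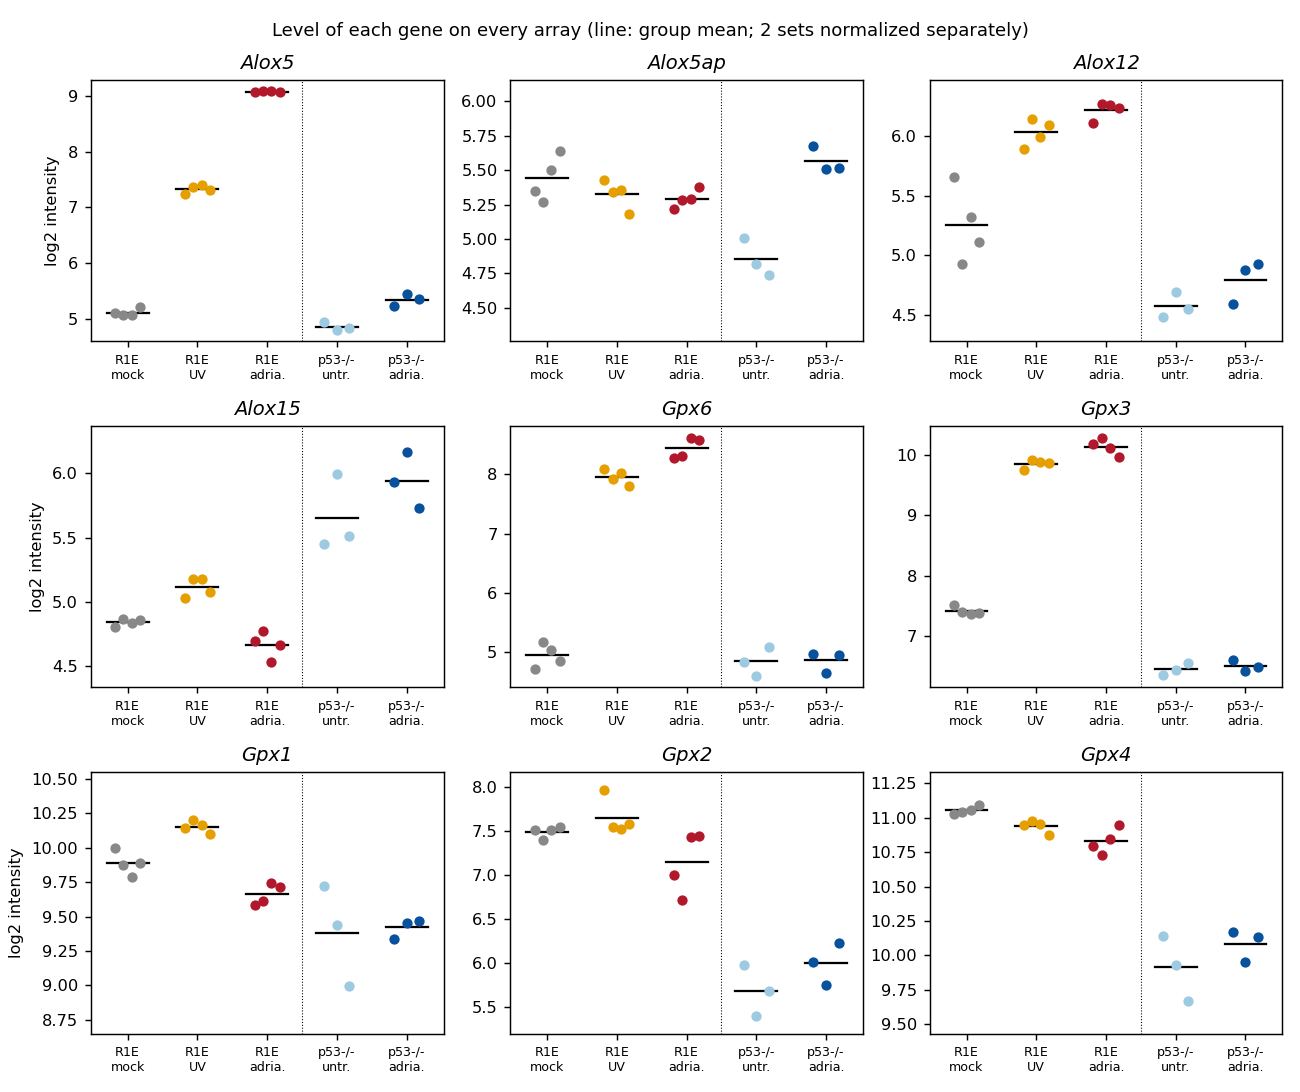
Log2 intensity (vertical axis, a separate range per panel) of each of the 9 genes on every array, by group (horizontal axis), with points for arrays and lines for group means; the dotted line separates 2 sets that were normalized separately. Alox5, Gpx6 and Gpx3 stand well above mock after UV and adriamycin in R1E cells and stay near the untreated level in p53-/- cells, where Alox5 moved by 0.48.

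Among the relatives the large rise was shared by Gpx3 and, to a smaller degree, by Alox12. After adriamycin in R1E cells 2 of the 7 relatives rose, Gpx3 and Alox12, and 4 fell, Alox15, Gpx1, Gpx2 and Gpx4, by amounts between 0.18 and 0.34 on the log2 scale. Over all genes tested 47.7% were called in this comparison (limma, Benjamini-Hochberg adjusted p below 0.05), with 22.1% higher and 25.6% lower. The arrays of the 2 groups did not overlap for 5 of the 7 relatives, 2 higher and 3 lower, and for 45.6% of all genes, 20.8% higher and 24.8% lower. The relatives had a median log2 change of -0.18, beside -0.02 over all genes. After UV 4 relatives rose, Gpx3, Alox12, Alox15 and Gpx1, and none fell, with a median of 0.27 beside 0.03, where 43.9% of all genes were called, 22.6% higher and 21.2% lower. Here 4 relatives lay wholly above mock and 1, Gpx4, wholly below, as 20.6% and 20.2% of all genes did (40.7% in either direction). Adriamycin against UV called 1 relative higher, Gpx3, and 3 lower, Alox15, Gpx1 and Gpx2, where 42.0% of all genes were called, 19.8% higher and 22.2% lower. The same 4 genes had arrays that did not overlap in that comparison, as did 38.3% of all genes, 18.4% higher and 19.9% lower. The comparisons with mock share the mock arrays, and the 3 comparisons share each treated group. All 3 comparisons depend in part on how arrays are aligned. Centring arrays on their medians moved every change by -0.13 after adriamycin and by -0.08 after UV. Then 25.4% and 35.3% of the calls over all genes were rises in place of 46.3% and 51.6%. After adriamycin the falls went from 5110 to 9640 genes and the rises from 4397 to 3281. After UV the falls went from 4236 to 5678 and the rises from 4515 to 3102. The shares of all genes given beside the lists hold for the values as deposited. Between adriamycin and UV the shift was -0.05, and 34.7% of the calls were rises in place of 47.2%. No member changed direction in those comparisons under that centring.

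Gpx3 encodes the secreted peroxidase of blood plasma. It read 7.51, 7.39, 7.37 and 7.38 in R1E mock cells, 9.75, 9.92, 9.88 and 9.87 after UV, and 10.19, 10.28, 10.12 and 9.98 after adriamycin. No array of a treated group came within 2 log2 units of the mock arrays, and the adriamycin arrays all lay above the UV arrays. The rise was 6.63-fold after adriamycin (log2 change 2.73 ± 0.06 SE, limma adjusted p = 9.14e-15) and 5.43-fold after UV (2.44 ± 0.06, limma adjusted p = 1.79e-13). Ranked by change over all 19935 genes, Gpx3 stood at place 32 after adriamycin and at place 10 after UV, beside places 6 and 3 for Gpx6. Adriamycin exceeded UV by 0.29 ± 0.06 (1.22-fold, limma adjusted p = 0.00175).

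Alox12 encodes the platelet-type 12-lipoxygenase, an enzyme that has been linked to p53-dependent ferroptosis. It read 5.65, 4.93, 5.32 and 5.11 in R1E mock cells, 5.90, 6.14, 5.99 and 6.10 after UV, and 6.11, 6.28, 6.26 and 6.24 after adriamycin. The mock arrays were more scattered than the treated ones, and even the highest of them, replicate 1, lay below every treated array. The rise was 1.96-fold after adriamycin (log2 change 0.97 ± 0.11, limma adjusted p = 1.63e-06) and 1.72-fold after UV (0.78 ± 0.11, limma adjusted p = 2.55e-05). The treatments differed by 0.19, with a 95% interval from -0.05 to 0.43, which did not pass the test (limma adjusted p = 0.196) except when mock arrays were left out of the fit (adjusted p = 0.0314).

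Alox5ap encodes FLAP, the membrane protein that hands arachidonic acid to Alox5 and without which cells make little leukotriene. Its R1E levels were 5.35, 5.27, 5.50 and 5.64 in mock cells, 5.43, 5.34, 5.36 and 5.18 after UV, and 5.22, 5.29, 5.29 and 5.38 after adriamycin, and the 3 groups overlapped. The change after adriamycin was -0.15 ± 0.08 (limma adjusted p = 0.128), with a 95% interval from -0.31 to 0.01, and after UV it was -0.11 ± 0.08 (limma adjusted p = 0.252), with an interval from -0.27 to 0.05. The falls passed the test with arrays centred on their median (limma adjusted p = 0.00385 after adriamycin and 0.0423 after UV) and with quantile normalization (0.00608 and 0.02), and the one after adriamycin also without mock replicate 2 (0.0373). Without mock replicate 4, the highest mock array, the changes shrank to -0.08 after adriamycin (limma adjusted p = 0.398) and -0.05 after UV (0.633), and without UV replicate 4 the latter was -0.06 (0.552).

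Alox15, the mouse 12/15-lipoxygenase that also oxidises lipids within membranes, moved in opposite directions under the treatments. It read 4.80, 4.87, 4.84 and 4.86 in mock cells, 5.03, 5.18, 5.18 and 5.08 after UV, and 4.70, 4.78, 4.54 and 4.67 after adriamycin. All UV arrays lay above and all adriamycin arrays below the mock arrays. These levels were low, below the medians of the R1E arrays (5.48 to 5.61), and how much of them is background signal was not tested. The mock means of Alox5 (5.11), Gpx6 (4.95), Alox12 (5.25) and Alox5ap (5.44) also lay below those medians. The fold sizes of Alox5 and Gpx6 thus start from low levels. Alox5ap means stayed below them after UV (5.33) and adriamycin (5.29). Alox15 fell by 0.18 ± 0.06 on the log2 scale after adriamycin (limma adjusted p = 0.0166) and rose 1.21-fold after UV (0.27 ± 0.06, limma adjusted p = 0.000781). The treatments differed by -0.45 ± 0.06 (limma adjusted p = 7.39e-06). The fall after adriamycin was no longer called without adriamycin replicate 3 (limma adjusted p = 0.0656).

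Gpx1, the cytosolic peroxidase found in most cells, showed the same split. It read 10.0001, 9.87, 9.79 and 9.89 in mock cells, 10.15, 10.20, 10.17 and 10.10 after UV, and 9.58, 9.61, 9.75 and 9.72 after adriamycin, again with no overlap between groups. It fell by 0.22 ± 0.06 after adriamycin (limma adjusted p = 0.00326) and rose 1.20-fold after UV (0.27 ± 0.06, limma adjusted p = 0.000911), a difference of -0.49 ± 0.06 between the treatments (limma adjusted p = 2.72e-06).

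Gpx2, the peroxidase of the gut lining, read 7.51, 7.40, 7.52 and 7.54 in mock cells, 7.97, 7.55, 7.52 and 7.58 after UV, and 6.998, 6.71, 7.44 and 7.45 after adriamycin. Adriamycin replicates 1 and 2 were low and the other two reached the mock range. The fall after adriamycin, 0.34 ± 0.14 on the log2 scale, barely passed (limma adjusted p = 0.0484) and failed without any 1 of the mock replicates or of adriamycin replicates 1 and 2 (adjusted p from 0.0561 to 0.179), and without replicate 2 the change was -0.20. Against UV, adriamycin was lower by -0.51 ± 0.14 (limma adjusted p = 0.00667), and UV against mock did not pass (0.16 ± 0.14, limma adjusted p = 0.371), with a change of 0.06 without UV replicate 1 and of 0.08 with arrays centred on their median.

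Gpx4 reduces phospholipid hydroperoxides within membranes and is needed for embryonic development. It read 11.03, 11.04, 11.05 and 11.09 in mock cells, 10.95, 10.98, 10.96 and 10.88 after UV, and 10.79, 10.73, 10.85 and 10.95 after adriamycin. Every treated array lay below every mock array, by a small margin. It fell by 0.22 ± 0.05 after adriamycin (limma adjusted p = 0.00171, and 0.0698 with quantile normalization), and the other Gpx4 probe gave -0.24. After UV the change was -0.11 ± 0.05 (limma adjusted p = 0.0897), with -0.11 from the other probe. It was -0.19 with arrays centred on their median (limma adjusted p = 0.00463) and -0.03 with quantile normalization (0.698). Gpx4 and Gpx2 have pseudogene copies, so their probes may read more than 1 locus.

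**Figure D2:**
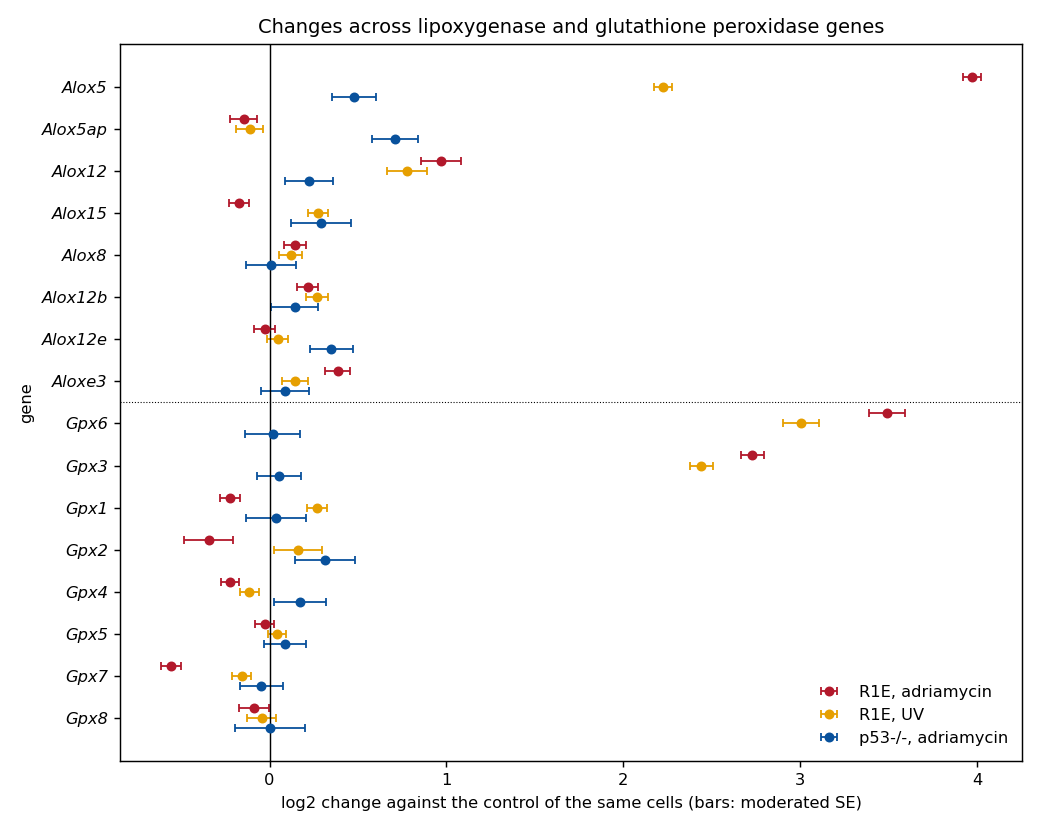
Log2 change against the control of the same cells (horizontal axis, with bars for moderated SE) for 16 genes (vertical axis). They are lipoxygenases, glutathione peroxidases and Alox5ap, in R1E cells after adriamycin or UV and in p53-/- cells after adriamycin. Alox5, Gpx6 and Gpx3 lie beyond 2 in R1E cells under both treatments, Alox12 near 1, and in p53-/- cells all 16 lie below 1.

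Of the other family genes, 4 lipoxygenases and 3 glutathione peroxidases, 2 rose and 1 fell after adriamycin in R1E. After UV 1 rose and 1 fell. Over all genes 47.7% were called after adriamycin, 22.1% higher and 25.6% lower, and 43.9% after UV, 22.6% higher and 21.2% lower. Of the lipoxygenases Alox8, Alox12b, Alox12e and Aloxe3, all known mainly from skin, 2 rose after adriamycin in R1E: Aloxe3 by 1.31-fold (0.38 ± 0.07, limma adjusted p = 0.000279) and Alox12b by 1.16-fold (0.22 ± 0.06, limma adjusted p = 0.00607). Alox12b rose 1.20-fold after UV (limma adjusted p = 0.00145). Alox8 was at 0.15 and Alox12e at -0.03 after adriamycin, neither called. Of Gpx5, Gpx7 and Gpx8, Gpx7, an endoplasmic reticulum peroxidase, fell by 0.56 ± 0.05 after adriamycin (limma adjusted p = 1.92e-07) and by 0.16 ± 0.05 after UV (limma adjusted p = 0.0257). Its fall after adriamycin was larger than that of any relative, and its effect differed between R1E and p53-/- cells by -0.51 ± 0.13 (limma-based adjusted p = 0.00982). Gpx5, an epididymal form and the neighbour of Gpx6 in the annotation, was at -0.03 after adriamycin, with a 95% interval from -0.14 to 0.08. Gpx8 was at -0.09. Gpx5 means were 3.00 in mock cells, 3.04 after UV and 2.97 after adriamycin, far below the medians of the R1E arrays (5.48 to 5.61). Mock means of Alox8, Alox12e and Aloxe3 were also low, at 4.44, 4.35 and 4.38. How much of these levels is background signal was not tested, so a small change there cannot show that a gene does not respond.

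In p53-/- cells adriamycin was tested for all 9 members, since the choice of genes did not use these arrays. No member was called by limma at the adjusted threshold, with either the standard or the trended and robust prior. An unadjusted p below 0.05 was found for 2 of 9, and those 2 were higher. Over all genes 0.0953% were called, 0.0150% higher and 0.0803% lower, and 11.6% had an unadjusted p below 0.05, and the p53-/- arrays gave a median SE of a change of 0.14 beside 0.06 in R1E. Gpx6 read 4.84, 4.61 and 5.09 untreated and 4.98, 4.66 and 4.96 after adriamycin, a change of 0.02 ± 0.15 with a 95% interval from -0.32 to 0.35 (limma adjusted p = 0.979). Gpx3 read 6.34, 6.44 and 6.55 untreated and 6.59, 6.41 and 6.48 treated, a change of 0.05 ± 0.12 with an interval from -0.22 to 0.32 (limma adjusted p = 0.909). For both genes the arrays of the groups overlapped. With arrays centred on their median, the changes of Gpx6, Gpx3 and Gpx1 turned to -0.08, -0.04 and -0.06, still not called.

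Alox5 read 4.95, 4.79 and 4.83 in untreated p53-/- cells and 5.22, 5.43 and 5.34 after adriamycin. All treated arrays lay above the untreated ones, as they did for 12.3% of all genes, with 5.22% wholly lower and 17.5% in either direction. The change was 1.39-fold (0.48 ± 0.12), with a 95% interval from 0.21 to 0.75, an unadjusted p of 0.00234 and a limma adjusted p of 0.203. Alox5ap read 5.01, 4.82 and 4.74 untreated and 5.68, 5.51 and 5.51 treated, and again the groups did not overlap. Its change of 1.63-fold (0.71 ± 0.13) was the largest among the members here, with a limma adjusted p of 0.0986, and 0.027 without untreated replicate 3.

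The other members did not pass in p53-/- cells either. Alox12 read 4.48, 4.69 and 4.55 untreated and 4.59, 4.88 and 4.93 treated, a change of 0.22 ± 0.14 (limma adjusted p = 0.552). Alox15 changed by 0.29 ± 0.17, Gpx2 by 0.31 ± 0.17, Gpx4 by 0.17 ± 0.15 and Gpx1 by 0.04 ± 0.17, with limma adjusted p from 0.507 to 0.955. The arrays of the 2 groups overlapped for each of these 5 genes. The other Gpx4 probe gave -0.02, against 0.17 for the one used. Untreated means of Alox5, Alox5ap, Alox12 and Gpx6 were 4.86, 4.86, 4.57 and 4.85, below the medians of the untreated arrays (5.30 to 5.35). How much of these levels is background signal was not tested.

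The effect of adriamycin differed between the cell lines for 4 of the 7 relatives, where 21.7% of all genes did, 10.4% higher and 11.4% lower in R1E (difference of the limma changes over their joint moderated SE, Benjamini-Hochberg adjusted). Gpx3 rose more in R1E by 2.68 ± 0.14 on the log2 scale (limma-based adjusted p = 2.38e-10) and Alox12 by 0.75 ± 0.18 (adjusted p = 0.00281). Alox5ap and Gpx2 differed the other way, by -0.86 ± 0.15 (adjusted p = 0.000253) and -0.66 ± 0.22 (adjusted p = 0.0316). For Alox5ap neither cell line's own change was called, and only the difference was. Alox15, Gpx1 and Gpx4 differed by -0.47, -0.26 and -0.39 (adjusted p = 0.0808, 0.37 and 0.0863). For the genes that chose the set the values stand side by side without a test, 3.97 in R1E and 0.48 in p53-/- cells for Alox5, and 3.49 and 0.02 for Gpx6.

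These differences join 2 sets of arrays that the authors normalized separately, so the genotype cannot be told apart from the cell line, its set of arrays or the software used. The Gpx2 call ended with array weights per set (adjusted p = 0.159) and without R1E adriamycin replicate 1 or 2, untreated replicate 2, or p53-/- adriamycin replicate 1 or 3 (adjusted p from 0.0574 to 0.128). That of Alox15 was gained with array weights per set (adjusted p = 0.0487), with a shared spread (0.029) and without untreated replicate 2 (0.0216), and that of Gpx4 with a shared spread (0.0219) and without untreated replicate 1 (0.0423).

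The genes whose R1E pattern came nearest to Alox5 were taken by the root mean square difference over the 12 R1E arrays, each gene set to its own mock mean. They were Cpz (0.33 log2 units), Ppp1r36 (0.34), Scn3b (0.36), Pm20d1 (0.49) and Cyyr1 (0.52). For Gpx6 they were Tap1 (0.15), Ppp1r36 (0.27), Scn3b (0.31), Cpz (0.39) and Plk2 (0.41), so 3 of the 5 genes were common to both. Alox5 and Gpx6 themselves lay 0.56 apart, and their changes differed more after UV (2.23 and 3.01) than after adriamycin (3.97 and 3.49). Tap1, the peptide transporter subunit of antigen presentation, was almost superimposed on Gpx6, at 3.53 and 3.01 after adriamycin and UV beside 3.49 and 3.01. In p53-/- cells, which this choice did not use, the 7 genes changed by -0.06 to 0.54. None was called (limma adjusted p from 0.173 to 0.984), where 0.0953% of all genes were. The largest changes were those of Cyyr1 (0.54 ± 0.13), Tap1 (0.39 ± 0.17) and Scn3b (0.29 ± 0.13), while Cpz and Plk2 were at -0.06 and -0.02.

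**Figure D3:**
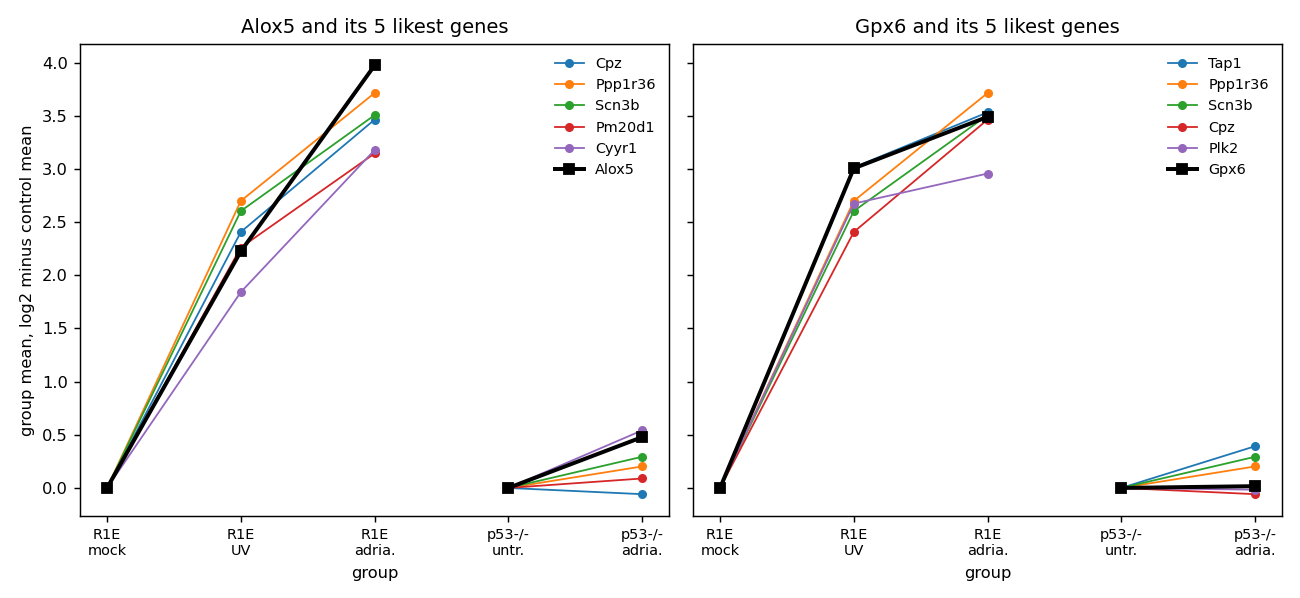
Group means as log2 intensity minus the mean of the control group of the same cells (vertical axis) by group (horizontal axis) for Alox5 and Gpx6 (black squares) and the 5 genes nearest to each over the R1E arrays (coloured circles). Alox5 climbs from 2.23 after UV to 3.97 after adriamycin, whereas Gpx6 goes from 3.01 to 3.49, beside Tap1 at 3.01 and 3.53; in p53-/- cells the changes stay at or below 0.54.

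Of 18 measured genes of the leukotriene pathway, 6 rose and 3 fell after adriamycin in R1E (median log2 change 0.03), and 9 were not called. The share called in either direction was near the 47.7% over all genes, where 22.1% rose and 25.6% fell. After UV 6 rose and 1 fell (median 0.12), where 43.9% of all genes were called, 22.6% higher and 21.2% lower. The largest rise was that of Ltb4r1, the high-affinity receptor for leukotriene B4. It read 5.10, 5.14, 5.04 and 5.09 in mock cells, 7.31, 6.98, 7.02 and 6.84 after UV, and 7.002, 6.95, 7.30 and 7.11 after adriamycin. The treated groups overlapped each other and lay far above mock, at 3.98-fold for adriamycin (1.99 ± 0.09, limma adjusted p = 1.24e-11) and 3.85-fold for UV (1.95 ± 0.09, limma adjusted p = 4.91e-11). In p53-/- cells its change was 0.07 ± 0.14 (limma adjusted p = 0.896), and the effects of the 2 lines differed by 1.93 ± 0.17 (adjusted p = 4.47e-08).

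Other rises in this pathway are named after their values were seen. Mgst2, a microsomal glutathione transferase that can make leukotriene C4, rose 2.44-fold after adriamycin (1.29 ± 0.10, limma adjusted p = 1.59e-08) and 1.49-fold after UV (0.57 ± 0.10, limma adjusted p = 0.000203). Pla2g4a, the cytosolic phospholipase that frees arachidonic acid, rose 1.82-fold after adriamycin (0.86 ± 0.08, limma adjusted p = 9.82e-08). It was at 0.07 ± 0.08 after UV (limma adjusted p = 0.527), a difference of 0.80 ± 0.08 (limma adjusted p = 5.74e-07). Pla2g4a read 4.29 to 4.71 in mock cells and 5.21 to 5.40 after adriamycin, below the medians of those arrays (5.48 to 5.61). Mgst2 read 4.09 to 4.26 in mock cells and 5.25 to 5.85 after adriamycin. How much of these levels is background signal was not tested. The 3 remaining rises after adriamycin were Ptgr1 (0.77), Cyp4f14 (0.75) and Pla2g6 (0.21). Of the enzymes that turn the Alox5 product into leukotrienes B4 and C4, Lta4h fell by 0.15 ± 0.05 after adriamycin (limma adjusted p = 0.0312). Ltc4s was at -0.07 ± 0.11 after adriamycin (limma adjusted p = 0.663) and rose 1.21-fold after UV (0.28 ± 0.11, limma adjusted p = 0.0493). The largest fall after adriamycin was that of Cotl1, an actin-binding partner of Alox5, at -0.35, and after UV that of Lta4h, at -0.27. In prostanoid synthesis 2 of 9 rose and 2 fell after adriamycin (median 0.06), and 3 rose and 1 fell after UV (median 0.03), beside 47.7% and 43.9% of all genes called. Ptges, a prostaglandin E synthase, led both, at 1.92-fold and 1.96-fold, while Hpgd was at -0.44 after adriamycin and Ptges3 at -0.22 after UV.

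Genes of glutathione synthesis and recycling changed in both directions. Of 14 measured genes 9 fell and 3 rose after adriamycin (median -0.23), where 25.6% of all genes fell and 22.1% rose. After UV 6 fell, 3 rose and 5 were not called (median -0.10), where 21.2% of all genes fell and 22.6% rose. Gclm, the modifier subunit of glutamate-cysteine ligase, fell by 0.72 ± 0.05 after adriamycin (limma adjusted p = 1.51e-09), while the catalytic subunit Gclc rose 1.42-fold (0.51 ± 0.06, limma adjusted p = 1.42e-06); these 2 genes are named after their values were seen. Gss, the glutathione synthetase, had the largest rise after adriamycin at 1.49-fold, and Chac2 after UV at 1.27-fold. Chac1, which breaks glutathione down, had the largest fall under both, at -1.31 ± 0.09 and -0.96 ± 0.09. Among 15 other genes of peroxide removal 4 rose and 2 fell after adriamycin (median 0.01) and 4 rose and 3 fell after UV (median 0.03), again beside 47.7% and 43.9% of all genes called. The list was led by Sesn2 at 1.87-fold and 1.90-fold, with Sod2, the mitochondrial superoxide dismutase, lowest at -0.66 and -0.40.

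Selenoprotein synthesis, on which Gpx1, Gpx2, Gpx3 and Gpx4 depend, had 3 of 8 genes lower and 1 higher after adriamycin (median -0.06). After UV 3 were lower and none higher (median -0.04), where 25.6% and 21.2% of all genes were lower after adriamycin and UV. Sephs1 was at -0.86 ± 0.05 after adriamycin, with Sepsecs rising by 0.14 ± 0.05, and Eefsec, the elongation factor for selenocysteine, was at -0.58 ± 0.06 after UV. Of 14 genes of lipid peroxidation and ferroptosis 7 fell and 3 rose after adriamycin (median -0.17), where 25.6% of all genes fell and 22.1% rose. After UV 4 fell and 4 rose (median 0.08), where 21.2% of all genes fell and 22.6% rose. In either direction 47.7% and 43.9% of all genes were called. Tfrc, the transferrin receptor, was lowest after adriamycin at -0.96 ± 0.05, and Acsl4, which primes membranes with oxidisable fatty acids, after UV at -0.79 ± 0.08. Lpcat3 rose by 0.59 ± 0.05 on the log2 scale after adriamycin and Hmox1 by 0.78 ± 0.06 after UV. In p53-/- cells limma called none of the 78 genes of these 6 lists with either prior. There 8, all higher, had an unadjusted p below 0.05, or 10.3% beside 11.6% over all genes in either direction.

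**Figure D4:**
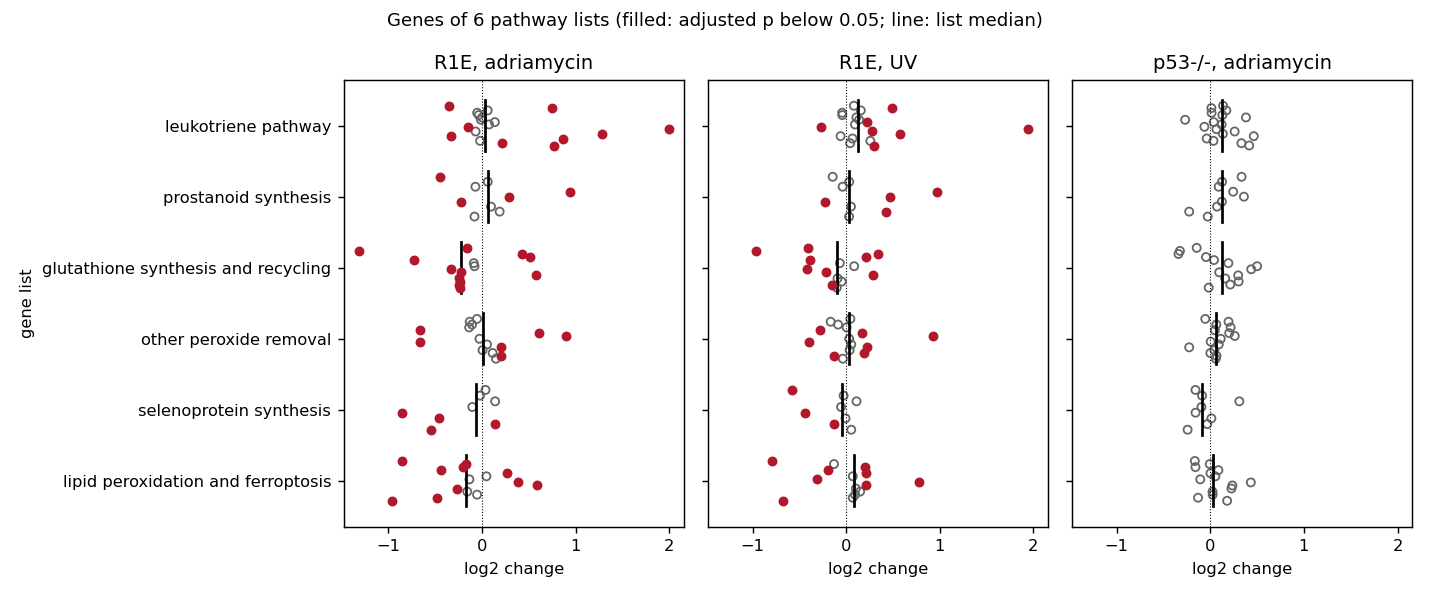
Log2 change (horizontal axis) of each measured gene of 6 pathway lists (vertical axis) in R1E cells after adriamycin or UV and in p53-/- cells after adriamycin; filled points had an adjusted p below 0.05, open points did not, and lines are list medians. Rises and falls lie on both sides of 0 in every list in R1E cells after adriamycin, Ltb4r1 stands alone near 2, and no point is filled in p53-/- cells.

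Markers were read for context. All 15 genes of a p53 response list rose in R1E after each treatment, where 22.1% and 22.6% of all genes rose. Tap1 led the list at 11.6-fold and 8.08-fold. The genes were listed with earlier results of these data known, so their count is context and not a test. In p53-/- cells limma called none of the 15 with either prior. There 4, all higher, had an unadjusted p below 0.05, or 26.7% beside 11.6% over all genes in either direction. Of the 19935 genes, 1536 were higher at that unadjusted p, and 12475 had a positive change. Stem cell markers were high in every group, with Pou5f1 between 11.90 and 12.05 in R1E mock cells and between 10.97 and 11.04 in untreated p53-/- cells. In R1E 9 of 10 fell after adriamycin and 7 after UV, where 25.6% and 21.2% of all genes fell. Alox5 and Alox5ap are typical of leukocytes, and of 12 leukocyte markers 5 rose after adriamycin and 6 after UV, with Spi1 (1.29-fold) and Cd68 (1.61-fold) highest, where 22.1% and 22.6% of all genes rose. The mean level of that list ran from 5.21 to 5.24 in mock, 5.31 to 5.39 after adriamycin and 5.41 to 5.48 after UV, and Ptprc, the pan-leukocyte marker CD45, stayed between 3.75 and 4.04 on all 3 with no change called. Of 11 fibroblast markers 3 rose and 1 fell after adriamycin in R1E, and 3 rose after UV. Over all genes 47.7% and 43.9% were called. Col1a1 led the rises at 1.52-fold and 1.27-fold. The list mean lay between 5.39 and 5.59 over the R1E arrays and between 6.80 and 7.17 over the p53-/- arrays. The part of these markers in the results on Alox5 and the peroxidases was not tested. Fewer cells with a transcript and less of it per cell cannot be told apart in these bulk samples.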

How the data were processed

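The authors deposited 1 table of log2 intensities for all probe sets. Per the submitters' processing notes, the tools were Affymetrix Expression Console 1.1 for R1E and Partek 6.4 (RMA) for p53-/- cells. The algorithm used in Expression Console and the genome build are not given in the sources used here. Levels were therefore tested only within a set. Array medians lay between 5.30 and 5.61, and precision is limited by the small number of arrays.

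Of 28853 probes 28815 had values on all 18 arrays, and the platform annotation gave 1 gene symbol for 21780, several for 1605 and none for 5430. Of the single-symbol probes, 21689 had an Entrez ID in the GRCm38.p6 RefSeq table, and 0 symbols changed. The probe with the highest mean over 18 arrays stood for each gene, leaving 19935 genes. Every member had a probe, and Gpx4 alone had 2.

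Changes were fitted in limma 3.58.1 (R 4.3.3) with lmFit and eBayes on the log2 values as deposited, with 12 R1E arrays in 1 fit and 6 p53-/- arrays in another, and adjusted over all genes by Benjamini-Hochberg. The difference of adriamycin effects used each set's moderated SE with Satterthwaite degrees of freedom. Errors are moderated SE, and intervals are 95%. The scripts were tested on simulated arrays.

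The members and gene lists were chosen with earlier results of these data known. Named genes were all family genes, the largest called rise and fall of each list after adriamycin and UV in R1E, and the 5 genes nearest to Alox5 and to Gpx6. Exceptions are stated where they occur. Alternatives covered centring, quantile normalization, a dim-gene filter, the mean of all probes, the eBayes prior, a replicate block, the arrays in the fit and each array left out. Replicate numbers did not pair the samples.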

Additional observations from a re-analysis of the deposited data

Results flagged for a closer look

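The adriamycin effect differed between R1E and p53-/- cells for 4 relatives, by 2.68 for Gpx3 (limma-based adjusted p = 2.38e-10), 0.75 for Alox12 (adjusted p = 0.00281), -0.86 for Alox5ap (adjusted p = 0.000253) and -0.66 for Gpx2 (adjusted p = 0.0316), on the log2 scale. Cell line, genotype and processing cannot be told apart in these differences. In 2 of 27 groups of 4 R1E arrays a single array stood away from the other 3, where chance gives about 1 in 20. Gpx2 read 7.97 on UV replicate 1, above 7.52 to 7.58 on the others, and without that array its change after UV was 0.06 in place of 0.16. Gpx3 read 7.51 on mock replicate 1, above 7.37 to 7.39 on the others, and the Gpx3 rises stayed called without that array.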

How the results depend on the processing

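Of 711 member values recomputed under the alternatives, 675 kept their side of the threshold and none with a call reversed. For Alox5 and Gpx6 in R1E, which had no test, the rule was a move of less than 1 SD. Values without a call could change sign and still count as kept, as those of Gpx1, Gpx3 and Gpx6 did in p53-/- cells. Most changed calls stand beside their genes in the report. Besides those, the Gpx2 fall after adriamycin missed the threshold with the trended and robust prior (limma adjusted p = 0.0638) and with only its own groups in the fit (0.0588). Gpx4 passed after UV with that prior (0.0294), and against UV with arrays centred (0.0157), with that prior (0.0372) and without adriamycin replicate 4 (0.03). The Gpx3 changes after adriamycin lay between 2.60 and 2.78. The Alox5 changes with arrays centred on their median were 3.85 after adriamycin and 2.15 after UV. All 9 members passed the dim-gene filter in both sets, which left out only the lowest 30% of genes by mean level. The p53-/- comparison was the least stable over all genes: 19 genes were called, 5 with the replicate block, and 0 to 442 with 1 array left out. That was 442 without untreated replicate 3, 6 and 5 without untreated replicates 1 and 2, and 0, 0 and 1 without adriamycin replicates 1, 2 and 3; the number of relatives called ranged from 0 to 1. The cause was not tested. Replicate numbers did not pair samples (correlations of same-numbered deviations from -0.14 to 0.19, and not every sample correlated best with its own number). The replicate block changed 1 call among the members, that of Alox15 in the difference between lines (adjusted p = 0.0305), and in the other comparisons left counts of called genes within 1.5 times. The number of arrays limits what can be seen in p53-/- cells.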
